A study of Salmo salar with 72 samples.

Results

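The 7 mitochondrially encoded subunits of respiratory complex I, ND1, ND2, ND3, ND4, ND4L, ND5 and ND6, were followed across all groups of a study of arsenic in salmon liver cells. They were taken from the deposited gene table by symbol among the genes assigned to the mitochondrial genome, a rule that uses no measured value, and are 7 of the 13 mitochondrially encoded mRNAs and of 25830 genes in all. The set itself was chosen with earlier results of these data known. Each was measured in every library and passed the filter on low values in every fit. The table names them NADH dehydrogenase subunits, with gene numbers 808311 (ND1), 808316 (ND2), 808308 (ND3), 808305 (ND4), 808312 (ND4L), 808309 (ND5) and 808317 (ND6).

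Complex I passes electrons from NADH to ubiquinone and pumps protons across the inner mitochondrial membrane, which makes it the main point of entry of electrons into the respiratory chain. The ND subunits form the core of its membrane arm, while all of its other subunits are encoded in the nucleus. Hepatocytes use the chain to meet the energy needs of protein, glucose and lipid synthesis. In vertebrates each strand of the mitochondrial genome is read as a long precursor that is cut into single RNAs, mostly at the tRNAs between the genes. ND6 is the only protein gene read from the opposite strand, and ND4L lies next to ND4 with overlapping reading frames and shares an mRNA with it in mammals.

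Primary hepatocytes of 6 male Atlantic salmon (Salmo salar) were cultured on 3-dimensional scaffolds at 10 °C, exposed to 1 arsenic compound or to none for 48 h, and their RNA was sequenced. The groups were arsenite (AsIII, trivalent inorganic arsenic) at 3, 10, 30 and 100 µM and its control, arsenate (AsV, pentavalent inorganic arsenic) at 10, 50 and 100 µM and its control, and arsenobetaine (AsB, a methylated organic form abundant in marine fish) at 10, 50, 100 and 500 µM and its control. AsIII and AsB groups held 6 libraries each, 1 per fish, and AsV groups held 3, from fish 1 to 3. The titles of the samples give these compounds and doses, and part of the protocol text lists others. The sample descriptions speak of separate plates per compound, though of these compounds they name AsIII alone. Controls may thus differ by plate, and between compounds an effect of the plate and one of the compound cannot be told apart. Each compound is set against its own control.

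Levels below are read counts divided by a size factor per library ("normalized counts"). Changes are differences of log2(normalized count + 1) ± SE from limma, with p-values adjusted over all genes tested, and a gene is called past an adjusted p of 0.05. Depth was 30.9 to 86.4 M reads per library, and the smallest number of reads behind a value was 116, for ND4L. Gene lengths were not given, so levels are not compared between genes. The AsIII libraries of fish 1 at 100 µM and of fish 5 at 30 µM had the most genes at 0 for that compound. The albumin, apolipoprotein, fibrinogen and other hepatocyte markers, 21 genes, took 11.2% to 16.0% of reads in all libraries, and the erythroid, leukocyte, endothelial and biliary lists each took at most 0.00200%. In such bulk samples fewer cells of a type and less RNA per cell cannot be told apart.

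Under AsIII most or all of the mRNAs of the mitochondrial complex I subunits were lower than in the controls at each dose. At 3 µM, 6 of 7 were called lower and none higher, with a median change of -0.71 against 0.05 over all genes. The share of all genes called lower at this dose was 25.0%. At 10 µM it was again 6 of 7 (all genes 20.5%), with a median of -0.98. At 30 µM all 7 were lower (all genes 17.7%, median of the 7 -2.29), and at 100 µM all 7 were lower (all genes 17.3%, median -2.26). The calls at 30 and 100 µM were 7 of 7 also without fish 1 at 100 µM or fish 5 at 30 µM. The fit with the fish as a block called 7 at each of the 4 doses. Shares of all genes called, here and below, belong to fits without the block. Counts with the block therefore have no share of all genes beside them.

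**Figure D1:**
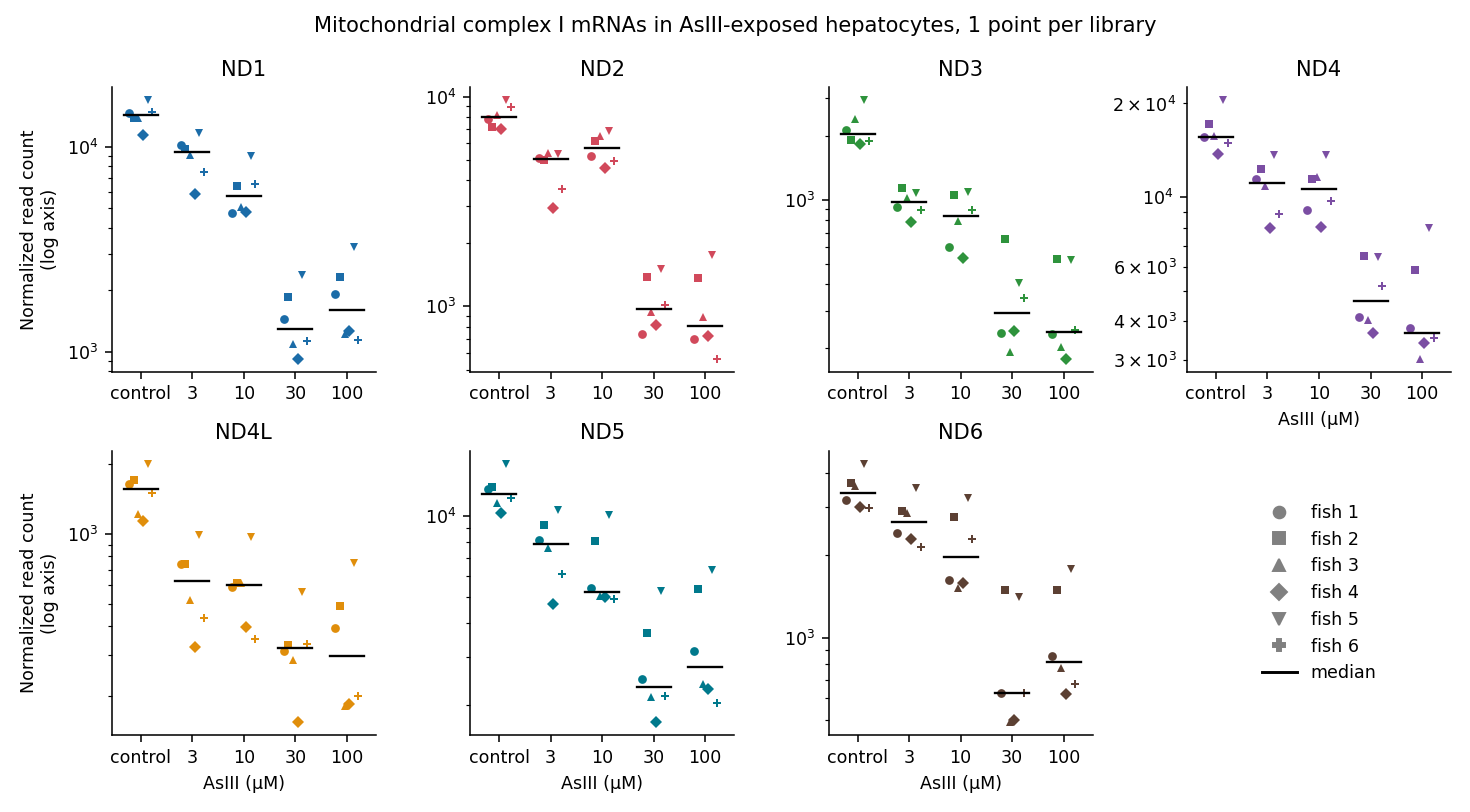
Normalized read counts (log axis) of the 7 mRNAs in each AsIII library, by dose in µM, with a symbol per fish and a bar at the group median. All values at 30 and 100 µM lie below all control values, and fish 5 is the highest control for each of the 7.

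The first 4 subunits described here lie where the membrane arm meets the peripheral arm or next to that junction, as known from mammalian and bacterial structures. ND1 helps to form the ubiquinone channel. It stood at 5898 to 11605 normalized counts (median 9413) at 3 µM and at 4734 to 8965 (median 5757) at 10 µM. It stood at 922 to 2359 (median 1281) at 30 µM and at 1137 to 3241 (median 1587) at 100 µM, against 11416 to 16836 (median 14203) in the controls. At 3 µM only fish 5, at 11605, overlapped the controls, and it did so with the control of fish 4, at 11416. The change was -0.68 ± 0.23 at 3 µM (limma adjusted p = 0.0156) and -1.25 ± 0.23 at 10 µM (adjusted p = 7.35e-05). At 30 µM it was -3.35 ± 0.23, or 10.2-fold lower (adjusted p = 3.51e-12), and at 100 µM -3.04 ± 0.23, or 8.24-fold lower (adjusted p = 4.41e-11). Among all genes tested, 0.0543% had a lower change than ND1 at 30 µM.

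ND3 carries a loop at the ubiquinone site that takes part in the switch of mammalian complex I between its active and resting forms. It stood at 788 to 1131 normalized counts (median 972) at 3 µM, 531 to 1089 (median 841) at 10 µM, 192 to 652 (median 292) at 30 µM and 178.01 to 522 (median 239) at 100 µM. The controls stood at 1833 to 2940 (median 2027). No exposed library reached the control range at any dose. The changes were -1.16 ± 0.26, -1.43 ± 0.26, -2.77 ± 0.26 and -2.90 ± 0.26 from the lowest to the highest dose, with limma adjusted p of 0.000468, 5.39e-05, 1.53e-09 and 8.88e-10.

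ND4L and ND6 hold parts of the proton path between the ubiquinone site and the antiporter-like subunits. ND4L stood at 324 to 987 normalized counts (median 628) at 3 µM, 350 to 975 (median 600) at 10 µM, 153.4 to 562 (median 322) at 30 µM and 180 to 750 (median 297) at 100 µM, against 1142 to 2010 (median 1569) in the controls. Exposed and control libraries did not overlap at any dose. ND4L had the greatest change of the 7 at 3 µM, -1.37 ± 0.34 (limma adjusted p = 0.00103), and a like value at 10 µM, -1.43 ± 0.34 (adjusted p = 0.000883). At 30 and 100 µM it was lower by 4.88-fold and 4.79-fold (adjusted p = 3.54e-06 and 4.79e-06).

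ND6, the opposite-strand gene, was the only one of the 7 not called at 3 µM. It stood at 2143 to 3512 normalized counts (median 2637) at 3 µM and 1522 to 3223 (median 1960.04) at 10 µM, against 2979 to 4304 (median 3370) in the controls, and both doses overlapped the controls. It was lower in 6 of 6 fish at 3 µM, by 0.29 to 0.48 on the log2 scale, yet the change of -0.37 ± 0.28 was not called (limma adjusted p = 0.270), and with the fish as a block it was (-0.37 ± 0.16, adjusted p = 0.0427). At 10 µM it was -0.72 ± 0.28 (adjusted p = 0.0334). At 30 µM, with 490 to 1487 normalized counts, and at 100 µM, with 622 to 1773, no library overlapped the controls, and ND6 was 4.45-fold and 3.59-fold lower (adjusted p = 4.2e-07 and 5.23e-06). Whether the counting used the strand is not given in the sources used here, so reads of ND6 and reads of the opposite strand over the same stretch may not be told apart.

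ND2, ND4 and ND5 are the antiporter-like subunits, which form proton channels along the membrane arm. ND2 stood at 2928 to 5401 normalized counts (median 5047) at 3 µM, 4549 to 6879 (median 5675) at 10 µM, 736 to 1512 (median 977) at 30 µM and 563 to 1750 (median 807) at 100 µM, against 6981 to 9609 (median 7962) in the controls. None of the exposed libraries overlapped the controls. Its change was -0.85 ± 0.22 at 3 µM (limma adjusted p = 0.00131) and -0.51 ± 0.22 at 10 µM, where it missed the threshold (adjusted p = 0.0514, and 0.0074 with the fish as a block). At 100 µM ND2 was 8.72-fold lower (adjusted p = 2.63e-12), the greatest fall of the 7 at that dose, after 7.79-fold at 30 µM.

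ND4 stood at 8000 to 13632 normalized counts (median 11139) at 3 µM, 8059 to 13680 (median 10603) at 10 µM, 3672 to 6489 (median 4659) at 30 µM and 3036 to 7966 (median 3668) at 100 µM, against 13787 to 20490 (median 15630) in the controls. Every exposed library lay below every control, though by a narrow margin at the 2 lower doses. The changes were -0.60 ± 0.19, -0.63 ± 0.19, -1.73 ± 0.19 and -1.90 ± 0.19 in dose order (limma adjusted p = 0.00886, 0.00774, 1.78e-08 and 4.08e-09). ND5 stood at 4710 to 10476 normalized counts (median 7858) at 3 µM, 4939 to 10074 (median 5226) at 10 µM, 1724 to 5265 (median 2332) at 30 µM and 2026 to 6322 (median 2773) at 100 µM, against 10200 to 15551 (median 12080) in the controls. Only at 3 µM did it overlap the controls. The changes were -0.71 ± 0.28, -0.98 ± 0.28, -2.17 ± 0.28 and -1.91 ± 0.28 (limma adjusted p = 0.0321, 0.00477, 4.49e-07 and 3.97e-06).

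Counted over the 7, the exposed libraries lay wholly below the controls for 4 at 3 µM (ND2, ND3, ND4 and ND4L; 15.6% of all genes did so), 6 at 10 µM (all but ND6; 12.2% of all genes), 7 at 30 µM (8.57%) and 7 at 100 µM (8.32%). Each of the 7 was lower than its own fish's control in 6 of 6 fish at every AsIII dose. The 6 fish kept some of their order: fish 5 had the highest value of all 7 mRNAs in the controls, of 5 at 3 µM, 7 at 10 µM, 4 at 30 µM and 6 at 100 µM, and fish 4 had the lowest value of 6 in the controls and of 6, 3, 4 and 2 at the rising doses. Over the 30 AsIII libraries the correlation between 2 of the 7 ran from r = 0.83 (ND2 with ND4L) to 0.97 (ND3 with ND4), a description that includes the dose effect and the fish the libraries share.

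The doses share their controls, and the step between neighbouring doses was tested directly. From 3 to 10 µM none of the 7 was called (limma, all genes called lower 15.7%, 1 of the 7 at an unadjusted p under 0.05, and 1, ND1, in the fit with the fish as a block). ND1 changed by -0.57 ± 0.23 in this step (adjusted p = 0.0679, and 0.00163 with the block), and ND2 by 0.34 ± 0.22, the only positive value of the 7. From 10 to 30 µM, 6 of the 7 were called lower (all genes 11.4%), from -1.10 ± 0.19 for ND4 to -2.45 ± 0.22 for ND2. ND4L, at -0.85 ± 0.34, was not called (adjusted p = 0.0706, and 0.000102 with the block). For ND1, ND2, ND4 and ND6 every library at 30 µM lay below every library at 10 µM, as 5.9% of all genes did. From 30 to 100 µM none of the 7 was called by limma, edgeR or DESeq2 (all genes called lower 1.53%), and none had an unadjusted p under 0.05 in limma. The changes in that step ran from -0.17 to 0.31, with 95% intervals that reached from -0.68 to 0.88.

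Beside the 7, the other 6 mitochondrially encoded mRNAs are those of cytochrome c oxidase (COX1, COX2 and COX3), cytochrome b of complex III (CYTB) and ATP synthase (ATP6 and ATP8). At 3 µM AsIII none of these 6 was called by limma with or without the block, and their median change was 0.00 beside -0.71 for the 7 (with libraries scaled to total reads, -0.27 beside -0.97, and -0.21 over all genes). The values were 0.02 ± 0.16 for COX1, 0.01 ± 0.16 for CYTB and 0.02 ± 0.25 for COX3, while ATP8, with the lowest value, was at -0.29 ± 0.28. At 10 µM only COX2 (-0.99 ± 0.19) and COX3 (-0.64 ± 0.25) were called, both lower, and with the block ATP6 as well, higher at 0.21 ± 0.08 (adjusted p = 0.034; -0.10 with libraries scaled to total reads). At 30 and 100 µM, 5 of the 6 were called lower, all but ATP6, which was at -0.27 ± 0.17 and -0.33 ± 0.17 (adjusted p = 0.221 and 0.125, and 0.00854 and 0.0014 with the block).

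**Figure D2:**
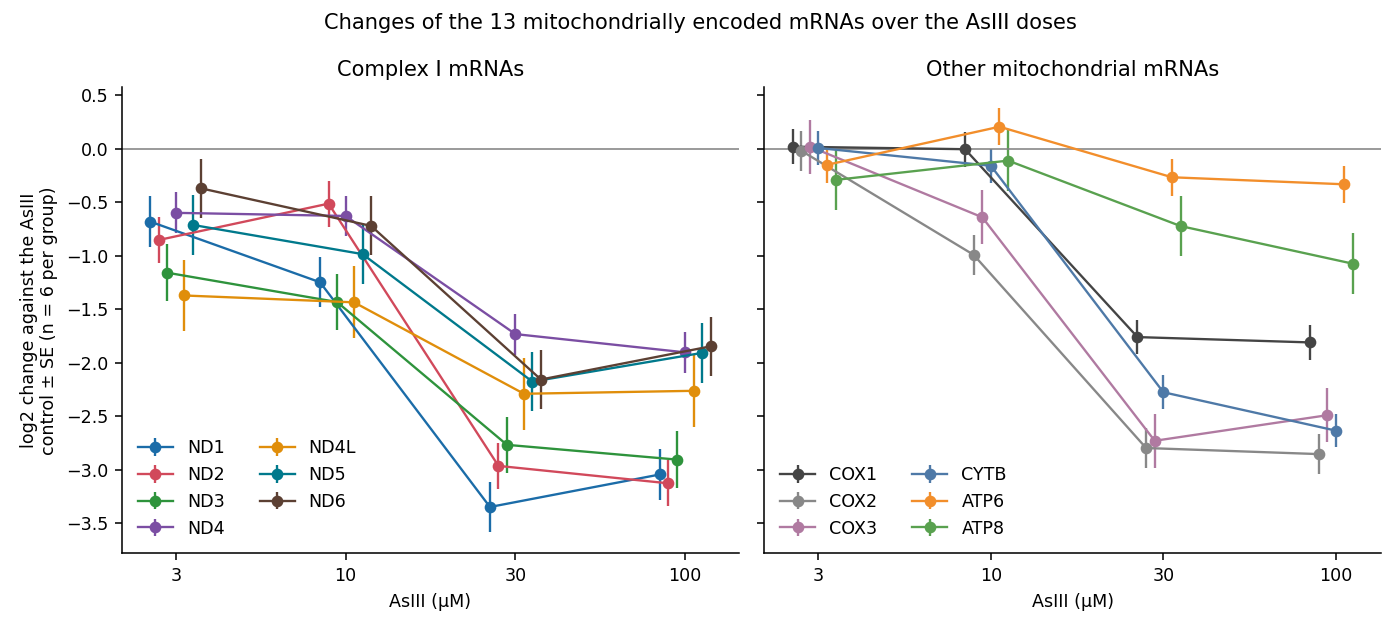
Changes (log2, ± SE, n = 6 per group) against the AsIII control over the 4 AsIII doses in µM, for the 7 complex I mRNAs on the left and the 6 other mitochondrial mRNAs on the right. At 3 µM the complex I mRNAs lie between -1.37 and -0.37 and the others between -0.29 and 0.02, while at 30 and 100 µM the ranges of both panels overlap.

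The 7 were set against the other 6 by scaling each library to the sum of its 6 other mitochondrial mRNAs, a setting added after the data were seen. Of the 6, COX1 gives the most reads to that sum. In this ratio 6 of the 7 were called lower at 3 µM (18.3% of all genes were), from -0.61 ± 0.14 for ND4 to -1.38 ± 0.25 for ND4L, and ND6 was at -0.38 ± 0.17 (adjusted p = 0.0823, and 0.00719 with the block). At 10 µM 6 of the 7 were again lower (all genes 7.19%), all but ND2 at -0.31 ± 0.16 (adjusted p = 0.132, and 0.0248 with the block). At 30 µM it was 3 (all genes 0.116%), namely ND1 at -1.38 ± 0.17, ND2 at -0.998 ± 0.16 and ND3 at -0.80 ± 0.17, and at 100 µM the same 3 (all genes 0.139%), at -1.0002 ± 0.17, -1.08 ± 0.16 and -0.86 ± 0.17. At both doses 5 of the other 6 were themselves called lower, which raises the ratio of any gene that fell less. The shares of 0.116% and 0.139% therefore reflect the scaling too. The values of ND4, ND4L, ND5 and ND6 lay between -0.33 and 0.23 at these 2 doses, and none was called without the block. With it, at 30 µM, ND4 was called higher (0.23, adjusted p = 0.0248) and ND4L lower (-0.33, adjusted p = 0.0467).

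In the step between 10 and 30 µM, in which 5 of the other 6 mRNAs fell, the ratio rose for 4 of the 7, as it did for 86.8% of all genes. ND4L was at 0.91 ± 0.25 (adjusted p = 0.000902), ND4 at 0.66 ± 0.14 (adjusted p = 6.88e-05), ND5 at 0.57 ± 0.18 (adjusted p = 0.0042) and ND3 at 0.43 ± 0.17 (adjusted p = 0.0189). ND2 fell in the ratio, at -0.69 ± 0.16 (adjusted p = 0.000159; all genes lower 0.387%), and was the only one of the 7 to do so without the block. Between 3 and 10 µM ND2 was the only one called without the block, higher by 0.55 ± 0.16 (adjusted p = 0.0153; all genes 12.4% higher and 5.01% lower). Between 30 and 100 µM no ratio of the 7 was called (all genes lower 0.724%).

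As a share of mitochondrial mRNA reads, the 7 together made up 3.49% ± 0.43 at 3 µM, 3.59% ± 0.41 at 10 µM, 4.38% ± 0.66 at 30 µM and 4.75% ± 0.76 at 100 µM, against 5.53% ± 0.36 in the AsIII controls (SD, n = 6). No library at 3 or 10 µM, the highest being 4.17%, reached the lowest control at 5.23%, and at 30 and 100 µM the ranges overlapped the controls. All 13 mitochondrial mRNAs together made up 2.27% ± 0.34 of reads at 3 µM, 1.92% ± 0.34 at 10 µM, 0.656% ± 0.181 at 30 µM and 0.652% ± 0.224 at 100 µM, against 2.76% ± 0.31 in the controls. The hepatocyte markers took 11.7% to 12.6% of reads at 3 µM, below the 14.3% to 15.1% of the controls. Of these 21 genes, 4 were called higher and 6 lower at 3 µM, with a median change of 0.00 (all genes 0.05). Over all genes, 29.5% were called higher and 25.0% lower at this dose. The list took 13.6% to 14.81% at 10 µM, 13.65% to 15.77% at 30 µM and 14.16% to 15.99% at 100 µM. At these doses 9, 8 and 9 were called higher and 3 each lower (medians 0.33, 0.27 and 0.32). Over all genes, 26.8%, 23.9% and 22.6% were called higher and 20.5%, 17.7% and 17.3% lower. The same shares of all genes, by dose, stand beside the erythroid and endothelial calls that follow. At 3 µM the erythroid markers took 0.000633% to 0.00170% against 0.000279% to 0.00128% in the controls. Of the 9, 2 were called higher and 0 lower, yet the median change of the list was -0.41 (from -1.82 to 6.21). The erythroid markers took 3.73e-05% to 0.000511% at 30 µM and 9.61e-05% to 0.000337% at 100 µM, with 4 of 9 called lower at both doses (medians -2.05 and -2.33). Of 4 endothelial markers 3 were called lower and 1 higher at 30 µM (median -2.22) and 1 lower at 100 µM (median -1.12). They took 6.76e-05% to 0.000199% and 7.69e-05% to 0.000203% of reads, against 0.000132% to 0.000299% in the controls. No erythroid or endothelial marker was at 0 in all libraries of these groups. At such small shares, though, the changes of these markers rest on few reads per gene. The part of these markers in the result was not tested.

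**Figure D3:**
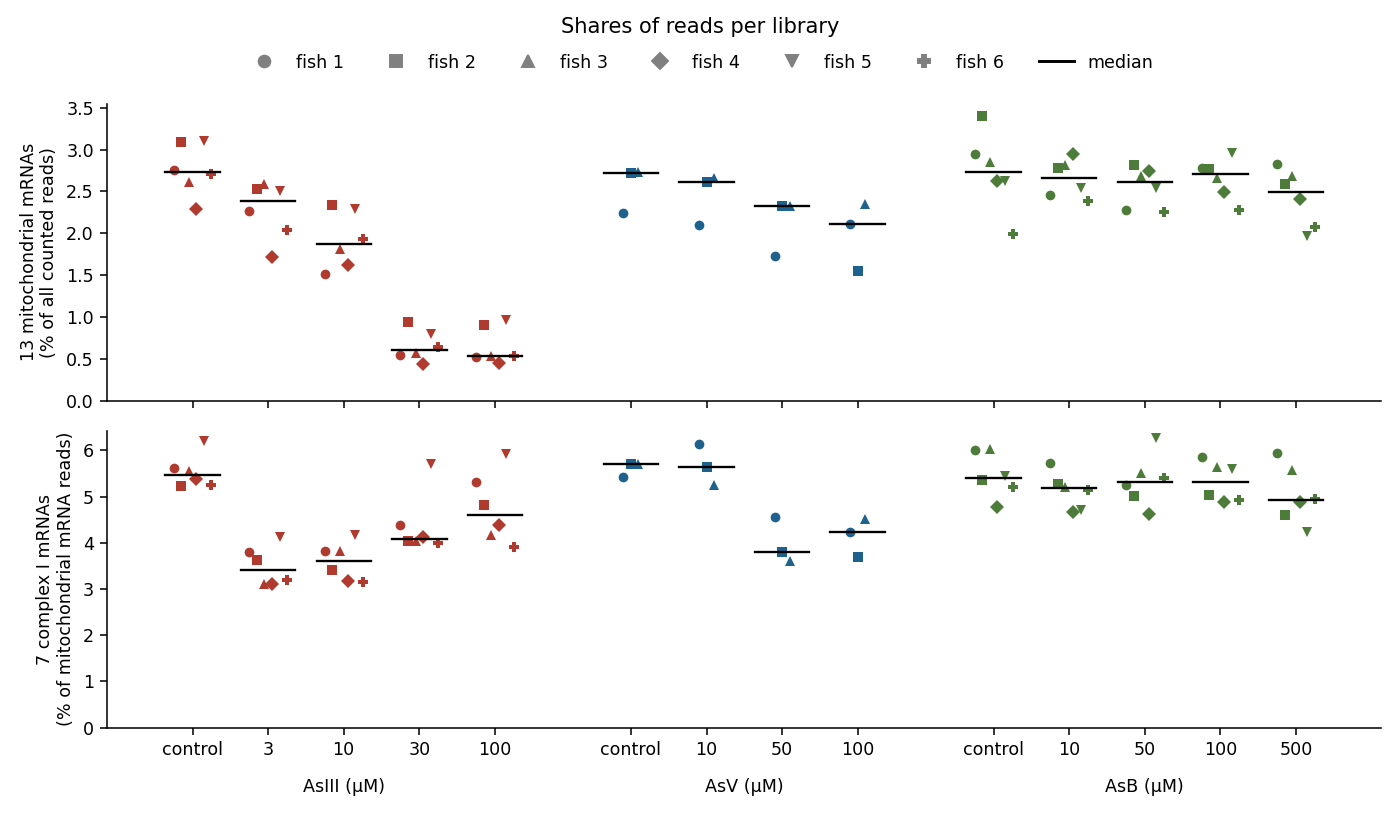
Upper panel: the 13 mitochondrial mRNAs as a percentage of all counted reads. Lower panel: the 7 complex I mRNAs as a percentage of mitochondrial mRNA reads, in each of the 72 libraries, by compound and dose in µM, with a symbol per fish and a bar at the median. The lower share is 3.10% to 4.13% at 3 µM AsIII and 3.62% to 4.55% at 50 µM AsV, and 5.23% to 6.20% and 5.42% to 5.72% in their controls.

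The authors' scaling sets the level of all libraries. When libraries were scaled to their total reads instead, the median of all genes moved to -0.21 at 3 µM and -0.24 at 10 µM, against 0.05 and 0.06 with the authors' size factors. The median of the 7 moved with it, to -0.97 and -1.29. Scaling moves all genes of a library alike, so the place of the 7 below the median gene was bound to stay. It is no further evidence for the fall.

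Under AsV, tested in 3 fish, 3 or fewer of the 7 were called at each dose, all lower. At 10 µM none was called, and values ran from -0.22 to 0.07 (all genes called lower 0.0%, none of the 7 at an unadjusted p under 0.05, and none by edgeR or DESeq2). At 50 µM 3 of the 7 were called lower, ND4, ND4L and ND5 (all genes 2.74%). At 100 µM 2 were called lower, ND4 and ND4L (all genes 2.21%), and with the fish as a block ND2 and ND5 as well. None of the 6 other mitochondrial mRNAs was called at 50 or 100 µM, and their medians were -0.16 and -0.29 against -0.79 and -0.78 for the 7.

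**Figure D4:**
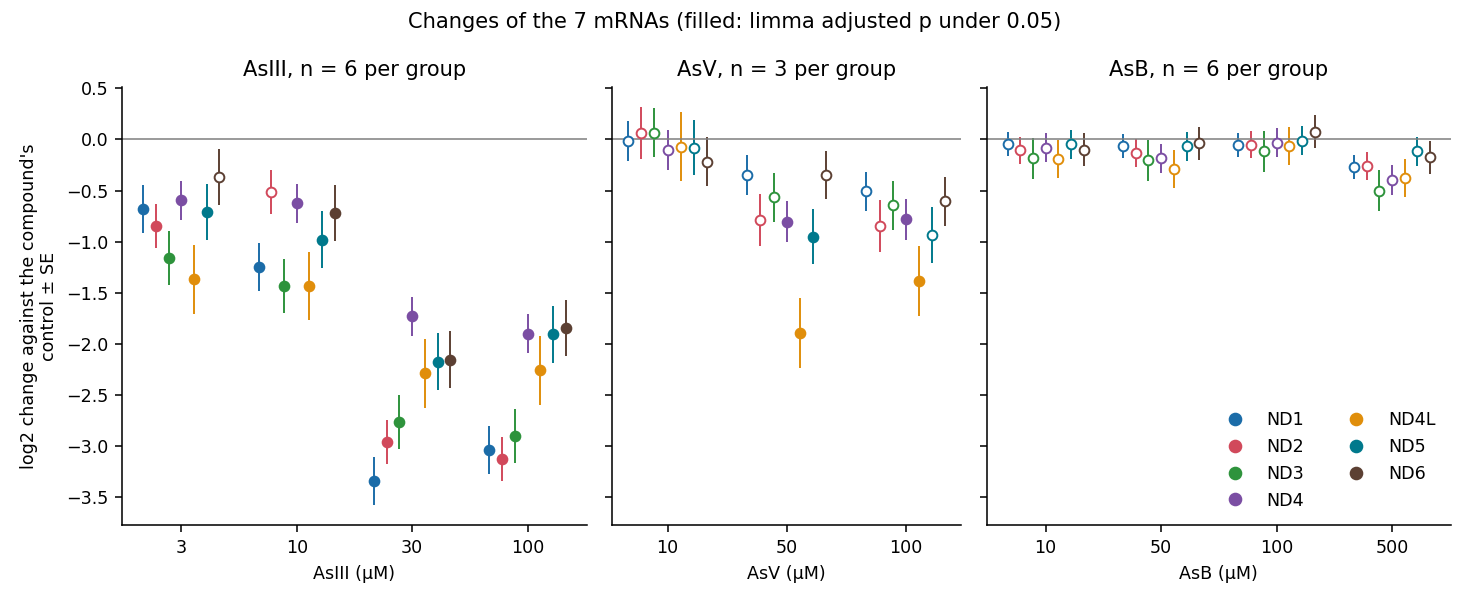
Changes (log2, ± SE) of the 7 mRNAs against the control of their compound, by dose in µM, for AsIII, AsV and AsB; filled points are past an adjusted p of 0.05. At 50 µM AsV ND4L is at -1.90, apart from the other 6, which lie between -0.95 and -0.35, and no AsB point is filled.

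ND4L had 448, 293 and 306 normalized counts in fish 1, 2 and 3 at 50 µM AsV and 724, 251 and 644 at 100 µM, against 965, 1407 and 1540 in the controls. It had 1119, 1327 and 1218 at 10 µM, within the control range. Fish 2 was the lowest at both higher doses, and no library at these doses reached a control. The change was -1.90 ± 0.34 at 50 µM, or 3.72-fold lower (limma adjusted p = 0.00603), and -1.39 ± 0.34 at 100 µM, or 2.61-fold lower (adjusted p = 0.0273). In the ratio to the 6 other mitochondrial mRNAs, ND4L alone was called at 50 µM (-1.75 ± 0.38, adjusted p = 0.0154; all genes 0.973%; not called without fish 2 or without fish 3), and none of the 7 at 100 µM (all genes 0.68%).

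ND4 had 7291, 9739 and 9582 normalized counts in fish 1 to 3 at 50 µM and 9124, 7668 and 10224 at 100 µM, against 12862, 17692 and 15955 in the controls. All 6 exposed values lay below the 3 controls. The change was -0.81 ± 0.20 at 50 µM (limma adjusted p = 0.0265) and -0.78 ± 0.20 at 100 µM (adjusted p = 0.0313). ND4L and ND4 overlap on the genome, so reads in the overlap may have been left out or split, and the difference between both changes was not tested.

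ND5 had 5709, 4599 and 5700 normalized counts at 50 µM and 6985, 3151 and 7037 at 100 µM, against 9205, 10724 and 10966 in the controls. Fish 2 was the lowest at both doses, and there was no overlap with the controls. The change was -0.95 ± 0.27 at 50 µM (limma adjusted p = 0.0485) and -0.93 ± 0.27 at 100 µM (adjusted p = 0.0538, and 0.0436 with the block). ND2 had 3793, 4419 and 4097 at 50 µM and 4422, 2467 and 5594 at 100 µM, against 6318, 7021 and 8020 in the controls. Again no exposed library reached a control, but the changes of -0.79 ± 0.25 and -0.85 ± 0.25 were not called (adjusted p = 0.0772 and 0.0610; with the block 0.055 and 0.0434).

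ND1 had 7857, 12218 and 10484 normalized counts at 50 µM and 8744, 8354 and 9808 at 100 µM, against 12055, 13152 and 13009 in the controls. ND3 had 1055, 2020 and 1507 at 50 µM and 1164, 1711 and 1370 at 100 µM, against 2232, 2355 and 1978 in the controls. ND6 had 1663, 3047 and 2973 at 50 µM and 1799, 2408 and 2024 at 100 µM, against 2926, 3616 and 2923 in the controls. All 3 overlapped the controls at 50 µM through fish 2 or 3 and not at 100 µM, and none was called, with changes between -0.35 and -0.64.

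Counted over the 7, libraries lay wholly below the controls for 4 at 50 µM (15.8% of all genes did so) and for 7 at 100 µM (14.2%). At 100 µM all 7 had an unadjusted p under 0.05. The calls rest on all 3 fish: with any 1 fish left out, 0 to 1 of the 7 was called at 50 µM (0 without fish 3) and 0 at 100 µM. As a share of mitochondrial mRNA reads the 7 made up 5.68% ± 0.44 at 10 µM, 3.99% ± 0.49 at 50 µM and 4.15% ± 0.42 at 100 µM, against 5.62% ± 0.17 in the AsV controls (SD, n = 3), with no overlap with the controls at the 2 higher doses. All 13 mitochondrial mRNAs made up 2.13% ± 0.34 and 2.00% ± 0.41 of reads at those doses, against 2.57% ± 0.28. The hepatocyte markers took 11.2% to 14.3% of reads at 50 µM and 11.8% to 13.4% at 100 µM, against 13.9% to 15.1% in the AsV controls. At these doses the endothelial markers took 5.47e-05% to 8.21e-05% and 3.15e-06% to 9.43e-05%, against 0.000130% to 0.000251%. Median changes were -0.72 and -2.325 for the endothelial list and 0.81 and 0.53 for the erythroid list. No gene of these 2 lists was called (all genes lower 2.74% and 2.21%, higher 4.23% and 4.47%). Such small shares rest on few reads per gene. The part of the markers in the result was not tested.

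AsB gave no call for any of the 7 at any dose by limma, edgeR or DESeq2, while 0.0% of all genes were called lower at each dose. The changes ran from -0.19 to -0.05 at 10 µM, from -0.29 to -0.04 at 50 µM and from -0.12 to 0.08 at 100 µM, and none of these had an unadjusted p under 0.05. At 500 µM all 7 values were negative, from -0.12 ± 0.14 for ND5 to -0.50 ± 0.20 for ND3, and 3 of them (ND1, ND3 and ND4) had an unadjusted p under 0.05 (adjusted p = 1.00 each). With the block their adjusted p were 0.416, 0.242 and 0.567. Against the control of the same fish, ND4 was lower in 6 of 6 fish, from -1.01 to -0.02, ND1, ND3 and ND4L in 5 of 6, ND2 and ND6 in 4 of 6 and ND5 in 3 of 6. ND3 stood at 1165 to 2848 normalized counts (median 1717) at 500 µM against 1475 to 3533 (median 2641) in the AsB controls, with wide overlap. The 7 made up 5.03% ± 0.63 of mitochondrial mRNA reads at 500 µM and 5.47% ± 0.49 in the controls (SD, n = 6). With 6 libraries a group, the 95% intervals at 500 µM reached at most -0.91 (ND3).

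The 3 control groups did not differ in a called way for any of the 7 (0 of 7 in each of 3 comparisons, 0.0% of all genes called lower, none at an unadjusted p under 0.05). Their median normalized counts for ND1 were 14203 (AsIII), 13009 (AsV) and 15013 (AsB).

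The responses to 2 compounds were compared at each matched dose, as the difference between the change under one compound and the change under the other. This gave 49 comparisons, 7 mRNAs in 7 pairs of compound and dose, and 19 were called, all with the lower value in the compound named first. AsIII and AsV are the 2 inorganic oxyanions and differ in the oxidation state of the arsenic, while AsB carries methyl groups on the arsenic.

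**Figure D5:**
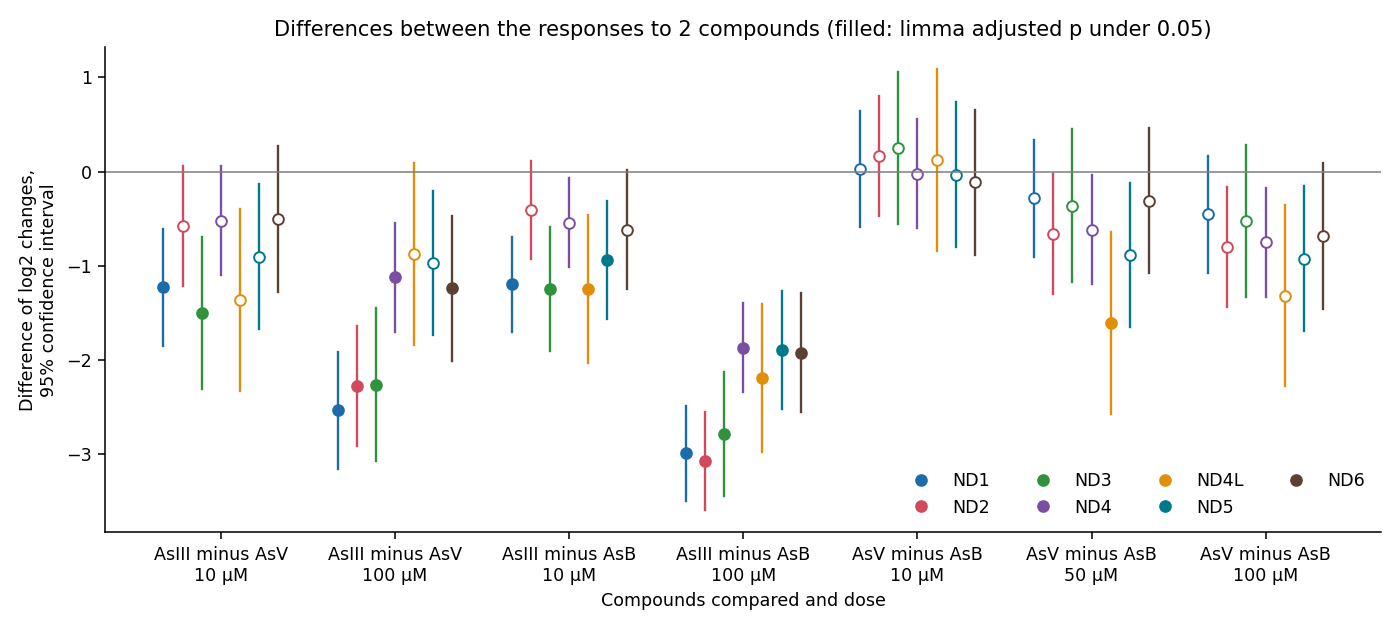
Differences between the changes (log2) under 2 compounds at a matched dose in µM, with 95% confidence intervals, for the 7 mRNAs; filled points are past an adjusted p of 0.05. All 7 differ between AsIII and AsB at 100 µM, 5 between AsIII and AsV at 100 µM, and none between AsV and AsB at 10 or 100 µM.

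At 10 µM the AsIII response was lower than that to AsV for ND1, at -1.23 ± 0.31 (limma adjusted p = 0.00406), and for ND3, at -1.50 ± 0.40 (adjusted p = 0.00807), the only 2 of 7 called (all genes called lower 3.74%). Without fish 3 it was 0 of 7, and without fish 1 it was 1, ND3. With the block 4 were called, ND4L (-1.36 ± 0.39, adjusted p = 0.00957) and ND5 (-0.90 ± 0.30, adjusted p = 0.0316) being added. The 95% intervals of the uncalled 5 were -1.21 to 0.06 for ND2, -1.10 to 0.06 for ND4, -2.33 to -0.40 for ND4L, -1.67 to -0.13 for ND5 and -1.27 to 0.27 for ND6. Against AsB at 10 µM the AsIII response was lower for 4 of 7 (all genes 8.38%): ND1 at -1.20 ± 0.25, ND3 at -1.25 ± 0.33, ND4L at -1.24 ± 0.39 and ND5 at -0.94 ± 0.31. Without fish 1 or without fish 6 it was 2 of 7. The intervals of the other 3 were -0.92 to 0.12 for ND2, -1.02 to -0.07 for ND4 and -1.25 to 0.01 for ND6.

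At 100 µM the AsIII response was lower than that to AsV for 5 of 7 (all genes 7.27%): ND1 at -2.53 ± 0.31, ND2 at -2.28 ± 0.32, ND3 at -2.26 ± 0.40, ND4 at -1.12 ± 0.29 and ND6 at -1.24 ± 0.39. Without fish 1 or without fish 3 it was 3 of 7. ND4L, the mRNA with the greatest change under AsV, was at -0.88 ± 0.48 (adjusted p = 0.256, interval -1.84 to 0.09) and ND5 at -0.97 ± 0.38 (adjusted p = 0.0821, interval -1.74 to -0.20; adjusted p = 0.0159 with the block). Against AsB at 100 µM all 7 AsIII responses were lower (all genes 5.88%), from -1.87 ± 0.24 for ND4 to -3.07 ± 0.26 for ND2.

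AsV and AsB were not told apart at 10 µM (0 of 7, all genes 0.0%, differences from -0.11 to 0.25, none at an unadjusted p under 0.05 and none by edgeR or DESeq2), with 95% intervals reaching from -0.89 (ND6) to 1.08 (ND4L). At 50 µM ND4L alone was called, at -1.61 ± 0.48 (adjusted p = 0.0213; all genes 4.41%; none without fish 2 or without fish 3), and ND5 too with the block (-0.89 ± 0.30, adjusted p = 0.0381). The intervals of the uncalled 6 at 50 µM reached from -1.65 (ND5) to 0.46 (ND6). At 100 µM none was called (all genes 3.97%, 4 of 7 at an unadjusted p under 0.05, none by edgeR or DESeq2), and 3 were with the block, ND4 (-0.75 ± 0.26), ND4L (-1.32 ± 0.39) and ND5 (-0.92 ± 0.30). Without the block the intervals at 100 µM ran from -1.07 to 0.16 for ND1, -1.43 to -0.16 for ND2, -1.33 to 0.28 for ND3, -1.33 to -0.17 for ND4, -2.28 to -0.35 for ND4L, -1.69 to -0.16 for ND5 and -1.45 to 0.09 for ND6.

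The level of each mRNA over all 14 groups followed from these values. By median, AsIII at 30 and 100 µM were the 2 lowest groups for ND1, ND2, ND3, ND4, ND5 and ND6, and their ranges overlapped each other. For ND1 and ND2 the next group upwards overlapped neither of them (AsIII 10 µM for ND1 and AsV 50 µM for ND2). For ND4 the next group, AsV 100 µM, at 7668 or more, overlapped AsIII 100 µM, at up to 7966, and not AsIII 30 µM. For ND4L the order was AsIII 100 µM (median 297), AsV 50 µM (median 306), AsIII 30 µM (median 322), AsIII 10 µM (median 600), AsIII 3 µM (median 628) and AsV 100 µM (median 644), each overlapping the next. AsB 50 µM came next (median 1051), and its lowest value, 846, lay above AsV 100 µM, at up to 724, but not above AsIII 3 and 10 µM, at up to 987 and 975. Among the controls, AsV at 10 µM and the AsB groups, neighbours in the order overlapped for all 7.

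The nuclear genes of the same complex had median changes nearer to 0. Of 67 genes named as nuclear complex I subunits, which include paralogous copies and 3 copies of NDUFA4, a protein now placed with complex IV, 38 were called lower and 1 higher at 3 µM AsIII (median -0.31), 13 lower and 3 higher at 10 µM (median -0.13), 19 lower and 3 higher at 30 µM (median -0.14) and 21 lower and 3 higher at 100 µM (median -0.20), against medians of all genes between 0.04 and 0.06. Over all genes 25.0%, 20.5%, 17.7% and 17.3% were called lower and 29.5%, 26.8%, 23.9% and 22.6% higher at the 4 rising doses. None of the NDUFA4 copies was among those called, and without them, a setting added after the data were seen, the medians were -0.32, -0.14, -0.15 and -0.22. The counts at 3 and 10 µM were 58 and 47 lower and 0 higher when libraries were scaled to their total reads. That scaling also moved the median of all genes, to -0.21 and -0.24. The share of all genes called lower under it is not given, so these counts have none beside them. No member of this list fell at 100 µM by more than 0.76 on the log2 scale, that of LOC106561367 (NDUFA9-like, an accessory subunit), at -0.76 ± 0.14, and at 3 µM it was at -1.08 ± 0.14. The other most reduced copies at 100 µM were LOC106573873 (NDUFA7-like), at -0.74 ± 0.21, and ndufs3, a core subunit of the peripheral arm, at -0.67 ± 0.12. LOC106573873 was at -1.57 ± 0.21 at 3 µM, the lowest value of the 67 at that dose and below the -1.37 of ND4L. Those that rose at 100 µM were LOC106586260 (similar to NDUFS1, a core subunit that holds iron-sulfur clusters), at 0.94 ± 0.11, LOC106581904 (NDUFV3-like), at 0.75 ± 0.12, and LOC106593632 (NDUFB8-like), at 0.51 ± 0.20. The list holds other copies of NDUFS1, NDUFV3 and NDUFB8, and none of those was called higher at this dose. None of the 67 was called under AsV or AsB at any dose, with or without the block. Of all genes, 2.74% and 2.21% were called lower at 50 and 100 µM AsV, and 4.23% and 4.47% higher. At 10 µM AsV and at each AsB dose 0.0% of all genes were called lower. These shares belong to the fits without the block.

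Of 17 assembly factor genes of complex I, 7 were lower and 1 higher at 3 µM AsIII, 5 and 2 at 10 µM, 7 and 1 at 30 µM and 8 and 0 at 100 µM. Over all genes, lower and higher calls made up 25.0% and 29.5% at 3 µM, 20.5% and 26.8% at 10 µM, 17.7% and 23.9% at 30 µM and 17.3% and 22.6% at 100 µM. At 10 µM it was 8 lower and 3 higher with the block, and 9 and 0 with libraries scaled to total reads. The shares of all genes above do not hold for either setting. The greatest falls at 100 µM were those of tm186 (-2.22 ± 0.67) and LOC106590477 (-1.57 ± 0.22), both copies of TMEM186, which in human cells takes part in building the membrane arm, and of the COA1 homolog LOC106569212 (-1.54 ± 0.19). None of the 17 was called under AsB, where 0.0% of all genes were called lower at each dose. At 50 and 100 µM AsV 1 of the 17 was called higher (all genes 4.23% and 4.47%), and with the block 1 was called lower as well.

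Among 26 genes that transcribe mitochondrial DNA or maintain it, 17 were lower and 2 higher at 3 µM (median -0.58), 8 and 3 at 10 µM (17 and 1 with libraries scaled to total reads), 12 and 4 at 30 µM and 14 and 3 at 100 µM. The shares of all genes are those given with the assembly factors, 25.0% lower at 3 µM and 20.5% at 10 µM. They do not hold for libraries scaled to total reads. LOC106579274, which resembles twinkle, the helicase of mitochondrial DNA replication, was at -3.25 ± 0.35 at 3 µM and -1.97 ± 0.35 at 100 µM. Both copies of the mitochondrial single-stranded DNA-binding protein were lower at 100 µM, LOC106576077 at -1.44 ± 0.22 and LOC106609216 at -1.06 ± 0.21. The 3 that rose at that dose were LOC106586546 (a copy of the accessory subunit of polymerase gamma) at 1.50 ± 0.33, polg (its catalytic subunit) at 0.67 ± 0.12 and LOC106560872 (similar to mitochondrial topoisomerase I) at 0.88 ± 0.32. The list holds another copy of the accessory subunit and of this topoisomerase, and neither was among those called higher. At 3 µM polg was lower, at -0.32 ± 0.12.

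Of 28 genes of mitochondrial RNA processing and stability, 17 were lower and 1 higher at 3 µM AsIII (median -0.72), 17 and 1 at 10 µM, 17 and 1 at 30 µM and 14 and 1 at 100 µM, beside 25.0%, 20.5%, 17.7% and 17.3% of all genes called lower. The RNA processing gene fastkd5 was at -3.82 ± 0.26 at 3 µM, -3.50 ± 0.26 at 10 µM, -1.53 ± 0.26 at 30 µM and -1.14 ± 0.26 at 100 µM, a course opposite to the median of the 7. LOC106578552, which resembles the mitochondrial poly(A) polymerase, was at -1.64 ± 0.35 at 3 µM and -1.63 ± 0.35 at 100 µM, and the TBRG4-like gene LOC106579951 at -0.75 ± 0.14 and -1.09 ± 0.14. The only gene of this list called higher at 100 µM was LOC106568668 (FASTKD3-like), at 0.85 ± 0.11. Under AsV at 50 and 100 µM no gene of these 2 lists was called lower (all genes 2.74% and 2.21%). Called higher were 1 and 2 at 50 µM and 0 and 1 at 100 µM (all genes 4.23% and 4.47%). Under AsB none was called, where 0.0% of all genes were called lower at each dose. Library scaling to total reads left these lists with 20 and 21 genes lower at 3 µM, without a share of all genes for that scaling.

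The genes most like the 7 were found by the Pearson correlation of log2(value + 1) with their mean over the 30 AsIII libraries, among 16519 genes with a mean value of 100 or more. The libraries share fish and doses, so this describes a common course over the doses. Besides the 7 themselves, the closest were COX3 (r = 0.95), COX2 (r = 0.93), COX1 (r = 0.93) and CYTB (r = 0.92), at ranks 7, 8, 9 and 11 with ND4L at rank 10. ATP8 and ATP6 were far behind, at ranks 832 (r = 0.64) and 1139 (r = 0.60). The closest 5 nuclear genes were LOC106569991 (similar to glyceraldehyde-3-phosphate dehydrogenase, r = 0.91), LOC100380866 (SMYD5, r = 0.90), LOC106583937 (similar to spinster homolog 1, r = 0.89), tmm32 (r = 0.88) and LOC106595930 (similar to ATRX, r = 0.88). LOC106569991 averaged 7559 ± 1526 normalized counts at 100 µM and 17775 ± 2387 in the controls (SD, n = 6 each), a change of -1.25, nearer to 0 than that of any of the 7 at this dose.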

How the data were processed

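RNA-seq of 72 salmon hepatocyte libraries was analysed from 1 deposited table of 25830 genes. Reads were aligned with HISAT2 and counted with featureCounts (Subread), and DESeq2 1.40.2 is named, per the submitters' processing notes. The authors deposited a signal per gene that is its read count over the library's size factor, and whole reads were recovered from it for 100% of values (tolerance 0.01). The sources used here give no genome build, library selection, strand setting or rule for reads that match several places. No gene lengths were at hand, so the planned levels per length were not computed, and no coordinates or sequences were used. All value columns belonged to these libraries.

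The main test was limma 3.58.1 (R 4.3.3; intensity trend, robust) on log2(value + 1), 2-sided, with a mean per group and Benjamini-Hochberg adjustment over all genes that reached 10 normalized counts in at least 6 (AsIII, AsB) or 3 (AsV, all libraries) libraries. Each compound was fitted alone; differences of responses and controls came from 1 fit over all 72. The design holds 24 comparisons. Such changes understate those of low genes. edgeR 4.0.16 and DESeq2 1.42.0 on recovered reads, other pseudocounts, filters and scalings, the fish as a block and each fish left out were alternatives. The fit was tested on simulated data.

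Fish numbers mark the same animal, so they pair libraries. The mean correlation of deviations over 16671 genes was 0.414 (AsIII), 0.190 (AsV) and 0.260 (AsB) between libraries of a fish, and -0.0828, -0.0943 and -0.0516 between fish. Chi-square per gene was 18.4 or more in each of 162 pairs of libraries from 1 group, so no library was a copy of another in its group. Pairs across groups were not checked.

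The 7 mRNAs and the gene lists were chosen with earlier results of these data known. All 7 are named; of each list, the 3 most raised and 3 most reduced called genes at 100 µM AsIII could be named, and the 5 nuclear genes with the highest correlation. Lists were matched by symbol or name, and near-identical copies may share reads.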

Additional observations from a re-analysis of the deposited data

Results flagged for a closer look

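Of 70 groups of 6 libraries (7 mRNAs in 10 AsIII and AsB groups), 1 held a library that stood apart from the others of its group. It was ND4 in fish 5 at 10 µM AsB, at 12632 normalized counts, with a gap to the next library of 0.678 of the group's range. Chance flags about 1 in 20 such groups.

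The responses to 2 compounds differed for 19 of the 49 pairs compared, by limma's test of the difference itself (log2 scale, first compound minus the second). AsIII minus AsV at 10 µM gave -1.23 for ND1 and -1.50 for ND3. AsIII minus AsV at 100 µM gave -2.53 for ND1, -2.28 for ND2, -2.26 for ND3, -1.12 for ND4 and -1.24 for ND6. AsIII minus AsB at 10 µM gave -1.20 for ND1, -1.25 for ND3, -1.24 for ND4L and -0.94 for ND5. AsIII minus AsB at 100 µM gave -2.99 for ND1, -3.07 for ND2, -2.79 for ND3, -1.87 for ND4, -2.19 for ND4L, -1.89 for ND5 and -1.92 for ND6. AsV minus AsB at 50 µM gave -1.61 for ND4L.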

How the results depend on the processing

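Over other settings (pseudocounts of 0.1 and 10, no filter, library-size and TMM scaling, fish as a block, edgeR, DESeq2 and a fit over all 72 libraries), 1403 of 1442 values of single mRNAs stayed called or uncalled as before, 36 became called, 3 lost the call and 0 reversed. With a fish or library left out, 1131 of 1183 stayed as before, 14 became called, 38 lost the call and 0 reversed. Of the 2625 values in both sets, 55 were uncalled, changed sign and stayed uncalled. The number called lower was 1 in place of 0 for AsIII 10 against 3 µM under the replicate block, DESeq2 and the fit over all libraries, and 4 in place of 2 for AsV at 100 µM under the same 3. It was 4 in place of 2 for AsIII minus AsV at 10 µM under library-size scaling and the block. The block also gave 2 in place of 1 for AsV minus AsB at 50 µM and 3 in place of 0 at 100 µM. In the ratio to the other mitochondrial mRNAs it gave 1 in place of 0 for AsIII 10 against 3 µM and 2 in place of 1 for 30 against 10 µM. The block changed no other count by over 1.5 times. The cause of these shifts was not tested.

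With 1 fish or library left out, the number called lower ran from 4 (without fish 6) to 6 at 3 µM AsIII, 5 to 7 at 10 µM, 0 to 1 for 10 against 3 µM and 6 to 7 for 30 against 10 µM, and stayed at 7 at 30 and 100 µM. It ran from 0 to 1 at 50 µM AsV and was 0 at 100 µM. It ran from 0 (without fish 3) to 4 and from 3 (without fish 1 or 3) to 6 for AsIII minus AsV at 10 and 100 µM, from 2 (without fish 1 or 6) to 5 for AsIII minus AsB at 10 µM and from 0 (without fish 2 or 3) to 1 for AsV minus AsB at 50 µM. In the ratio it ran from 4 (without fish 4) to 6 at 10 µM AsIII, 1 to 2 for 30 against 10 µM and 0 (without fish 2 or 3) to 1 at 50 µM AsV. Fewer libraries enter these fits, and AsV then has 2 a group. Each value of the 7 rested on at least 116 reads, and the number of fish limits the precision.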
